A study of Mus musculus with 14 samples.

Results

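The genes described here encode the 5 subunits of the transcription factor NF-kB (Nfkb1, Nfkb2, Rel, Rela and Relb) and 5 of its inhibitors and regulators (Nfkbia, Nfkbib, Nfkbie, Nfkbiz and Tnfaip3). Chromatin accessibility was measured by ATAC-seq, in which a transposase cuts open DNA and the cut fragments are sequenced, and the values are read counts in windows of 201 bp. A window was assigned to the gene with the nearest protein-coding start site, up to 100 kb from the centre of the window. By this rule 342 of the 240778 windows belonged to these genes, 160 to the subunits and 182 to the inhibitors. The cells were Treg cells of spleen and lymph nodes from mice in which the endogenous Foxp3 gene carries an auxin-inducible degron (Foxp3AID), so that Foxp3 protein is degraded only where the plant ligase TIR1(F74G) and its ligand 5-ph-IAA are both present. TIR1(F74G) is expressed from the ROSA26 locus after Cre, encoded in the Foxp3AID allele itself, removes a stop cassette, and R26WT mice lack it. All mice of both genotypes received 5-ph-IAA. On day 3 there were 4 R26WT and 4 R26TIR1(F74G) mice, and on day 7 there were 3 R26WT and 3 R26TIR1(F74G) mice. Neither age nor sex is given in the sample labels. For accessibility on day 7, the paper describes heterozygous Foxp3AID/WT mice, whose Treg cells using the Foxp3WT allele keep the protein. Resting and activated cells expressing the reporter of the Foxp3AID allele were sorted there. The sample titles give day, genotype and replicate and do not say whether a library came from resting or activated cells.

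NF-kB proteins bind DNA as dimers at kappa B sites. Rela, Rel and Relb carry transactivation domains, whereas Nfkb1 and Nfkb2 are made as precursors that are processed to the subunits p50 and p52. The classical IkB proteins, among them those encoded by Nfkbia, Nfkbib and Nfkbie, hold dimers in the cytoplasm until a kinase complex marks them for degradation. Nfkbiz encodes IkB-zeta, a nuclear protein that binds NF-kB on chromatin and affects selected target genes, and Tnfaip3 encodes A20, a ubiquitin-editing enzyme that limits the signal upstream. Several of these genes are themselves targets of NF-kB, which makes the pathway self-limiting. In Treg cells, Rel is known for its part in the induction of Foxp3 during thymic development, and Rela and Rel for maintaining the effector state.

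Total counts per library ranged from 5653289 to 18728202 in the R26TIR1(F74G) mice of day 3, from 11221502 to 17923213 in the R26WT mice of day 3, from 16655824 to 20184487 in the R26TIR1(F74G) mice of day 7 and from 6348754 to 17523917 in the R26WT mice of day 7. The summed accessibility at start sites of B cell markers was 1.83 to 3.81 CPM (window counts scaled to the normalised library total) over all libraries, with windows for 2 of 8 genes, and that of myeloid markers 6.14 to 8.74 CPM, with windows for 4 of 8 genes. The Treg and T cell markers summed to 64.8 to 93.5 CPM with windows for 6 of 8 genes, and Foxp3 itself was among the 2 that had no window within 500 bp of the start site used here. The CD8 T cell markers Cd8a and Cd8b1 summed to 11.3 to 15.5 CPM, of which Cd8b1 gave 12.5 CPM on average and Cd8a 1.33 CPM. Every pair of libraries within a group differed by more than counting noise (chi-square of 1.87 to 3.17 per degree of freedom). Because the cells are a bulk population, a change in a window and a change in the share of cells that carry it open cannot be told apart.

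The promoters of this family are shown because letters of the family's own binding motif lie within several of the start-site windows. RefSeq promoters (GRCm38) were at hand for 7 of the 10 genes, as 10 promoters because Nfkb2 has 3 start sites and Tnfaip3 has 2. The 250 bases upstream of each start site were searched on both strands for kappa B letters (GGG, any 3 bases, then TTCC) and for the forkhead letters TGTTTAC, which do not overlap each other in these promoters. At least 1 kappa B match was found in 8 of the 10 promoters, of 5 of the 7 genes, against 4.65% of all 32851 promoters of the same length. The forkhead letters were in none of the 10 promoters and in 3.17% of all promoters. A match is a description of the letters and not a measured binding site, and the genes form a family known to be regulated by its own product. In the 5 sequences that follow, 5′ to 3′ on the strand of the gene and ending at the base before the start site, capitals mark the kappa B match.
Nfkb2, chr19:46304487-46304736, plus strand: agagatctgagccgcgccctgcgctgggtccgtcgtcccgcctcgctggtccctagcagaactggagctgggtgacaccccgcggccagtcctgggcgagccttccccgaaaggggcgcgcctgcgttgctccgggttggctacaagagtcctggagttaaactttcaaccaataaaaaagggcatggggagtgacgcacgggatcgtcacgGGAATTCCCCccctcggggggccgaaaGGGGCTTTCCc
Rel, chr11:23770970-23771219, minus strand: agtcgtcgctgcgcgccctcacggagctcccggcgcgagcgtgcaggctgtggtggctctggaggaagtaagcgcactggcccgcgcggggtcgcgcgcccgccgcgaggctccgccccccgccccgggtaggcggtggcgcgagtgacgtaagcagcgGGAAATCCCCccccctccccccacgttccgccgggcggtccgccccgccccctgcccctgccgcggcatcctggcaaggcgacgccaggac
Nfkbia, chr12:55492648-55492897, minus strand: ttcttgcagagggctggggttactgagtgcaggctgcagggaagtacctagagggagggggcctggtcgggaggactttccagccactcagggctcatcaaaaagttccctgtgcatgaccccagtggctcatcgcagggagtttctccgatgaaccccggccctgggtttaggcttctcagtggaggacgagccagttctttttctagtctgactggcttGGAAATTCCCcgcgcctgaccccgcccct
Nfkbie, chr17:45555450-45555699, plus strand: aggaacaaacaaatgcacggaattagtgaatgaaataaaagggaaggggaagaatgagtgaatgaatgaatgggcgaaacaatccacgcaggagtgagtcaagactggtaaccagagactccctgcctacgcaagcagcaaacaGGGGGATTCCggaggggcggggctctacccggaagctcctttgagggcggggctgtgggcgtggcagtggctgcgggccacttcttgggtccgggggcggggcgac
Tnfaip3, chr10:19015411-19015660, minus strand: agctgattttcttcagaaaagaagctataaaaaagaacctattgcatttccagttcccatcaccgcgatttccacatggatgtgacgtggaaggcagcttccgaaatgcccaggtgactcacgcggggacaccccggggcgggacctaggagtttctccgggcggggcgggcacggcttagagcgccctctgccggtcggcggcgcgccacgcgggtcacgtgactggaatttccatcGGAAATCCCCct

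In each of these 5 genes a match lay within the gene's start-site window, the window whose centre is nearest its start site. The match began 91 bases upstream of the start site in Rel, 29 in Nfkbia, 106 in Nfkbie and 12 in Tnfaip3. Nfkb2 had matches 38 and 11 bases upstream, of which the former lay inside its start-site window. Rela and Nfkbib had promoters without a match to these letters.

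The number of windows per gene ranged from 2 for Nfkbib to 79 for Nfkb1, with 66 for Nfkbiz, 67 for Tnfaip3, 45 for Rel, 36 for Nfkbia, 12 each for Nfkb2, Rela and Relb, and 11 for Nfkbie. Many windows overlap, and joining those that do left 227 separate regions. Of the 342 windows, 123 lay inside the gene to which they were assigned and 24 lay within 500 bp of its start site. The median window of the family had 2.20 CPM, against 1.80 CPM for all windows, and the median start-site window of all genes had 15.7 CPM. All windows have the same length, so their CPM can be compared between genes.

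Nfkbib, one of the classical IkB genes, had the most accessible start site (46.5 ± 5.13 CPM, SD, n = 14 libraries). It was followed by Nfkbia (38.6 ± 4.05 CPM), Rel (36.4 ± 3.67 CPM) and Tnfaip3 (33.9 ± 3.02 CPM), and all 4 were above 98.6% of all windows. Nfkbie had 21.4 ± 2.58 CPM. The remaining start sites lay close together, with 17.5 ± 2.11 CPM for Nfkb1, 15.6 ± 2.85 CPM for Nfkb2, 15.5 ± 1.42 CPM for Relb, 14.8 ± 2.42 CPM for Nfkbiz and 13.9 ± 1.49 CPM for Rela. The ranges over the 14 libraries overlapped between all neighbors in this order except Tnfaip3 and Nfkbie. Within a library, Nfkbib was above Nfkbia in 14 of 14, whereas Nfkbia was above Rel in 7 of 14 and Nfkb2 above Relb in 6 of 14. The Nfkb2 window was 3620 bp from the gene-level start but at the first of the RefSeq start sites shown above.

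**Figure D1:**
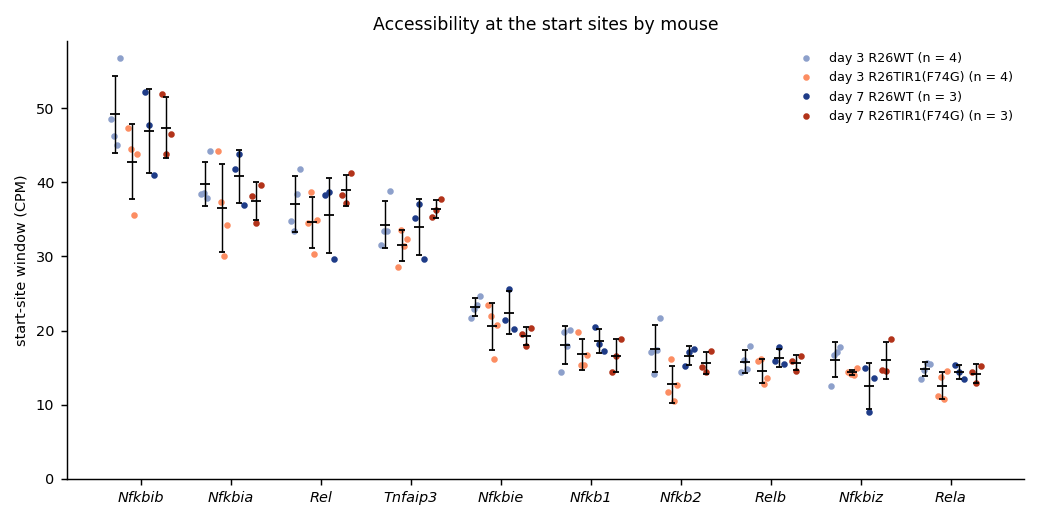
Accessibility of the start-site window of each gene in CPM (vertical axis) for the 14 mice, ordered by mean. Each point is a mouse, colored by day and genotype, and the black bars give the group mean and SD. Nfkbib, Nfkbia, Rel and Tnfaip3 lie above the other 6 genes in every group, and the 4 groups overlap for most genes.

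The most accessible window was at the start site in only some of the genes. Relb had its most open window 806 bp downstream of the start (chr7:19628532-19628733; 47.8 CPM, against 15.5 CPM at the start site), within the gene. In Nfkbiz the most open window was 16763 bp downstream, inside the gene (chr16:55822091-55822292; 41.4 CPM, against 14.8 CPM at the start site). For Tnfaip3 it lay 46887 bp upstream and outside any protein-coding gene (chr10:19062197-19062398; 45.2 CPM, against 33.9 CPM). Nfkb1 had a window 39514 bp upstream (20.1 CPM) slightly above its start site. For Rel, Nfkbib and Nfkbie the start-site window was itself the most open, and for Rela and Nfkbia it lay 176 bp and 596 bp downstream of the start.

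No window of these genes passed the test between R26TIR1(F74G) and R26WT mice. Foxp3 is removed as protein here, so these counts hold no direct check of its loss. When day was a term in the model and the days were joined, with 7 mice per genotype, 0 of 342 windows had an adjusted p under 0.05 (edgeR quasi-likelihood test, Benjamini-Hochberg over all windows), and the smallest adjusted p was 0.354. On day 7 it was 0 of 339 and on day 3 0 of 338. DESeq2 called 0 in each of the 3 comparisons as well. Among all windows edgeR called 0.0112% over both days, 0.00463% on day 7 and 0% on day 3, and DESeq2 called 0.0644%, 0% and 0%. At an unadjusted p under 0.05, 16 windows of the family were higher and 11 lower in R26TIR1(F74G) mice on day 7 (4.72% and 3.24%, against 2.75% and 3.2% of all windows). These day 7 counts rested on single mice, with 23 and 7 without the R26WT mouse 1, 12 and 14 without mouse 2, 11 and 17 without mouse 3 and 10 and 6 without the R26TIR1(F74G) mouse 1, and DESeq2 gave 8 and 6. On day 3, 7 were higher and 22 lower (2.07% and 6.51%, against 3.93% and 3.62%). The day 3 excess of lower windows shrank to 11 and 14 when libraries were scaled by total counts, to 9 and 13 with loess offsets, to 11 and 14 without the R26TIR1(F74G) mouse 3 and to 8 and 13 without the R26WT mouse 4. Over both days 6 were higher and 15 lower (1.75% and 4.39%, against 3.16% and 3.57%). With the days joined, the counts became 10 and 14 with total counts, 9 and 9 without the R26TIR1(F74G) mouse 2 of day 3, 10 and 14 without mouse 3 of that group, 14 and 16 without the R26WT mouse 3 of day 7 and 10 and 11 without the R26TIR1(F74G) mouse 2 of day 7. They were 3 and 17 without the R26WT mouse 2 of day 7 and 3 and 14 without the R26TIR1(F74G) mouse 3 of day 7. The median log2 fold change over the family was 0.00 on day 7, -0.01 on day 3 and 0.01 with the days joined, against -0.01, 0.01 and 0.00 over all windows. The 3 comparisons share mice and are not independent.

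At the start sites, the log2 fold change of R26TIR1(F74G) over R26WT mice over both days was below 0 for 9 of the 10 genes. It was -0.28 ± 0.10 (SE) for Nfkb2, -0.21 ± 0.09 for Nfkbie, -0.15 ± 0.10 for Nfkb1, -0.14 ± 0.10 for Rela, -0.13 ± 0.08 for Nfkbia, -0.11 ± 0.08 for Nfkbib and -0.10 ± 0.09 for Relb. Tnfaip3 and Rel were at -0.03 ± 0.08 and -0.0047 ± 0.09, and Nfkbiz was at 0.06 ± 0.11. None passed the test, with adjusted p-values from 0.591 for Nfkb2 upward. A lower start site was common among all genes, as 70.3% of 10870 start-site windows were below 0 over both days (median -0.06), 74.6% on day 3 (median -0.11) and 53.2% on day 7 (median -0.01). The widest 95% confidence interval over both days at a start site was that of Nfkbiz, from -0.16 to 0.28, and that of Rel ran from -0.18 to 0.17.

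**Figure D2:**
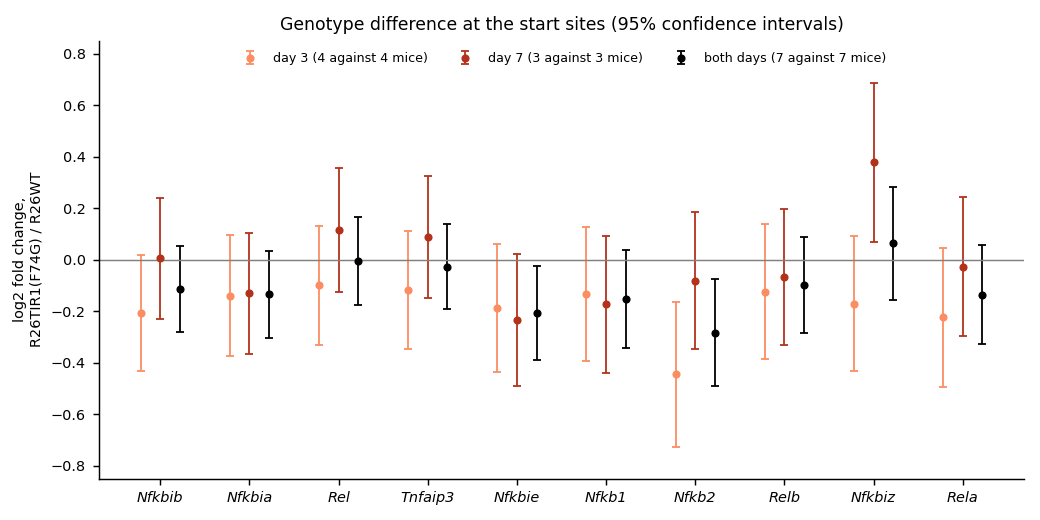
Log2 fold change of R26TIR1(F74G) over R26WT mice at the start-site window of each gene (vertical axis) for day 3, for day 7 and for the days joined, with 95% confidence intervals. Most intervals include 0. That of Nfkb2 lies below 0 on day 3 (-0.73 to -0.16) and over both days (-0.49 to -0.08). That of Nfkbie lies below 0 over both days (-0.39 to -0.03), and that of Nfkbiz above 0 on day 7 (0.07 to 0.69). None passed the adjusted threshold.

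Among the subunits, Rela and Nfkb2 stood lowest on day 3. Every one of the 12 Rela windows had a log2 fold change below 0 on day 3 (median -0.34), and 6 of them had an unadjusted p under 0.05. For Nfkb2 it was 11 of 12 windows (median -0.27), 5 of them with an unadjusted p under 0.05. Of all windows, 48.8% were below 0 on day 3, and 3.62% were lower with an unadjusted p under 0.05. A lower value was more common at start sites, where 74.6% of the windows of all genes were below 0. Of the 12 Rela windows, 5 lay within 500 bp of the start site. Of the 12 Nfkb2 windows 0 did, but this was counted from the gene-level start. The start-site window and the most accessible window of Nfkb2 lie at RefSeq start sites farther downstream. None of the 24 passed the adjusted threshold, and windows of a gene that overlap or lie side by side share reads or mice and are not replicates.

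The Rela window with the smallest p on day 3 lay 11725 bp from the start, past the end of the gene (chr19:5649067-5649268). It had 7.70, 6.48, 6.97 and 6.02 CPM in the R26WT mice and 4.32, 4.24, 4.25 and 4.18 CPM in the R26TIR1(F74G) mice. The groups did not overlap. The log2 fold change was -0.67 ± 0.17 (SE; unadjusted p = 0.000213, adjusted p = 0.383, edgeR). On day 7 the same window had 5.62, 6.45 and 4.05 CPM in R26WT and 5.67, 6.02 and 6.17 CPM in R26TIR1(F74G) mice, which overlap (log2 fold change 0.09 ± 0.17). Another Rela window nearby (chr19:5648787-5648988) had 12.9, 12.2, 12.7 and 12.0 CPM in R26WT and 8.63, 9.66, 6.93 and 9.41 CPM in R26TIR1(F74G) mice on day 3, again without overlap (log2 fold change -0.52 ± 0.14, adjusted p = 0.418, edgeR). On day 7 its log2 fold change was -0.09 ± 0.14. Both windows were named for their small p on day 3, which makes groups without overlap likely. Windows without overlap of the genotypes were not counted over all windows.

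In Nfkb2, the window at the first start site (chr19:46304514-46304715) had 17.1, 14.2, 17.3 and 21.7 CPM in the R26WT mice of day 3 and 11.7, 16.2, 10.4 and 12.7 CPM in the R26TIR1(F74G) mice. Only 1 R26TIR1(F74G) mouse lay within the R26WT range. The log2 fold change was -0.45 ± 0.14 (adjusted p = 0.476, edgeR) on day 3 and -0.08 ± 0.13 on day 7. Its most accessible window lay 4618 bp from the gene-level start and held another of its RefSeq start sites (chr19:46305512-46305713). That window had 23.7, 15.7, 17.5 and 22.8 CPM against 16.5, 15.6, 12.9 and 12.9 CPM on day 3 (log2 fold change -0.47 ± 0.14, adjusted p = 0.443, edgeR). Over both days it was -0.36 ± 0.10 (unadjusted p = 0.000767, adjusted p = 0.385, edgeR), which made it one of the 3 smallest p-values of the family in that comparison. Leaving out the R26TIR1(F74G) mouse 3 of day 3 moved the Nfkb2 median of day 3 to -0.18 with 9 of 12 windows below 0 and 2 with an unadjusted p under 0.05, and leaving out the R26WT mouse 4 moved it to the same value with 10 below 0 and 3 under 0.05. Without the R26WT mouse 1 it was -0.22, with 9 below 0 and 2 under 0.05. Under other scalings the Nfkb2 windows with an unadjusted p under 0.05 numbered 3 with total counts (median -0.22) and 2 with loess offsets (median -0.25), and those of Rela numbered 5 with each. For Rela, leaving out the R26TIR1(F74G) mouse 3 of day 3 gave a median of -0.29, with 11 of 12 windows below 0 and 3 under 0.05. Leaving out the R26WT mouse 4 of day 3 gave -0.27, with 11 below 0 and 4 under 0.05.

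**Figure D3:**
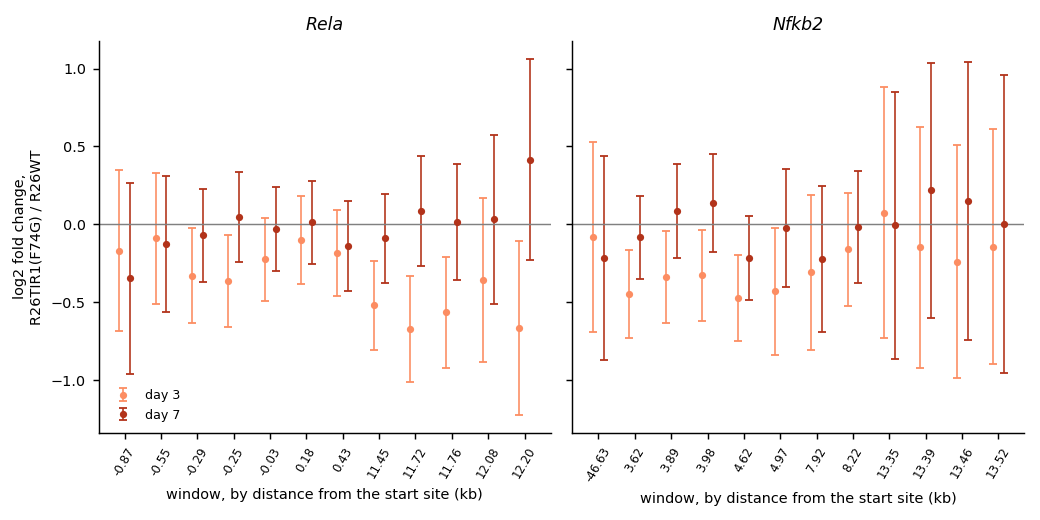
Log2 fold change of R26TIR1(F74G) over R26WT mice (vertical axis) with 95% confidence intervals for the 12 Rela windows (left) and the 12 Nfkb2 windows (right), ordered by distance from the start site in kb and not drawn to scale. The day 3 values of Rela are all below 0 and those of Nfkb2 in 11 of 12 windows, whereas the day 7 values lie on both sides of 0.

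Rel, which encodes c-Rel, had a start site that differed by less than its error, and held the window with the smallest p of the family over both days. That window lay 48182 bp upstream of the start site, outside any protein-coding gene (chr11:23819051-23819252). It had 5.11, 3.37, 2.25 and 4.72 CPM in R26WT and 1.80, 1.39, 3.06 and 3.38 CPM in R26TIR1(F74G) mice on day 3, and 3.49, 3.55 and 3.60 against 1.71, 2.92 and 2.18 CPM on day 7. The genotypes overlapped on day 3 and did not on day 7, in a window named for its small p. The log2 fold change was -0.67 ± 0.24 on day 3 and -0.65 ± 0.23 on day 7, and joining the days gave -0.66 ± 0.18 (unadjusted p = 0.000459, adjusted p = 0.354, edgeR). A window 52156 bp upstream of Rel was lower on day 7 alone in value, at -1.12 ± 0.38 (adjusted p = 0.700, edgeR), with 0.17 ± 0.32 on day 3, but it held 5 to 34 reads per library. In Nfkb1 an intragenic window 55755 bp from the start had 2.71, 2.97 and 3.60 CPM in R26WT and 5.72, 4.47 and 3.79 CPM in R26TIR1(F74G) mice on day 7 (log2 fold change 0.63 ± 0.21, adjusted p = 0.687, edgeR) and a log2 fold change of 0.06 ± 0.20 on day 3. Relb showed 0 of 12 windows with an unadjusted p under 0.05 over both days, and its most open window differed by -0.06 ± 0.08.

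Among the inhibitors, the Nfkbia start site had 38.4, 38.6, 37.9 and 44.2 CPM in R26WT and 44.2, 37.3, 30.1 and 34.3 CPM in R26TIR1(F74G) mice on day 3, and 41.7, 43.8 and 36.9 against 38.2, 34.6 and 39.7 CPM on day 7. The genotypes overlapped on both days. Of the 36 Nfkbia windows 24 were below 0 over both days, against 49.3% of all windows, and 4 had an unadjusted p under 0.05, all lower, against 3.57% of all windows. The 4 became 0 without the R26WT mouse 4 of day 3 or the R26WT mouse 1 of day 7, 1 without the R26TIR1(F74G) mouse 4 of day 3 or mouse 2 of day 7, 2 without the R26TIR1(F74G) mouse 2 of day 3, 7 without mouse 1 of that group and 1 with loess offsets. Nfkbie had 21.7, 22.9, 23.5 and 24.7 CPM against 23.4, 22.0, 16.1 and 20.8 CPM at its start site on day 3, and 21.4, 25.6 and 20.2 against 19.5, 17.9 and 20.3 CPM on day 7, so that the genotypes again overlapped (both days: adjusted p = 0.685, edgeR). The Nfkbiz start site was the only one with an unadjusted p under 0.05 on day 7. It had 14.9, 9.01 and 13.6 CPM in R26WT and 14.7, 14.5 and 18.9 CPM in R26TIR1(F74G) mice, which overlap, with a log2 fold change of 0.38 ± 0.15 (adjusted p = 0.793, edgeR) against -0.17 ± 0.13 on day 3. Tnfaip3 had 1 window of 67 with an unadjusted p under 0.05 over both days, which was lower, and its upstream window differed by 0.02 ± 0.09.

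Whether the genotype difference itself changed between days was tested with an interaction term, and 0 of 342 windows passed (smallest adjusted p = 0.662, edgeR). DESeq2 called 0 as well, and among all windows 0% were called. At an unadjusted p under 0.05, 17 windows were higher and 10 lower (4.97% and 2.92%, against 2.75% and 3.57% of all windows), which became 14 and 14 with total counts and 13 and 12 with loess offsets. The smallest p was that of the Rela window 11725 bp from the start, at 0.77 ± 0.24 on the log2 scale. The difference between the day 3 and day 7 values of Rela therefore did not pass its own test. The next were an Nfkbiz window 50560 bp from the start (1.58 ± 0.56, with 2 to 42 reads per library) and an Nfkbie window 618 bp upstream (-1.01 ± 0.36).

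The changes that passed the test separated the days and not the genotypes, and they were all in 1 place. Past the end of Nfkbiz, a group of 9 windows 28278 to 29636 bp from the start site, 598 to 2157 bp beyond the end of the gene, was more accessible on day 7 than on day 3. In R26WT mice 2 of 337 windows of the family passed (edgeR, against 0.003% of all windows), both in this group. In R26TIR1(F74G) mice 0 of 341 passed (edgeR, against 0% of all windows; DESeq2 also 0, against 0.000836%). When both genotypes entered 1 fit with genotype as a term, a comparison added after the values of the single genotypes were seen, 4 of 342 passed (edgeR, against 0.00332% of all windows), all of them in this group. These 4 windows were among 8 called over the whole table, and the smallest p of all 240778 windows was in this group. The 4 join into 2 separate regions, since 3 of them overlap each other.

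The window with that smallest p (chr16:55809482-55809683) had 2.77, 2.98, 3.41 and 2.83 CPM in R26WT and 2.70, 2.63, 2.53 and 2.41 CPM in R26TIR1(F74G) mice on day 3. On day 7 it had 6.72, 4.83 and 5.85 CPM in R26WT and 4.81, 4.59 and 4.96 CPM in R26TIR1(F74G) mice. All 6 mice of day 7 were above all 8 mice of day 3, in both genotypes. The log2 fold change of day 7 over day 3 was 0.92 ± 0.13 (SE; adjusted p = 0.0013, edgeR) over both genotypes, 0.94 ± 0.19 in R26WT mice (adjusted p = 0.175, edgeR) and 0.90 ± 0.20 in R26TIR1(F74G) mice (adjusted p = 0.142, edgeR). Counts in this window ranged from 15 to 104 reads per library.

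An overlapping window (chr16:55809425-55809626) was 1 of the 2 called in R26WT mice. It had 2.34, 2.65, 3.07 and 2.71 CPM on day 3 and 6.98, 4.94 and 5.70 CPM on day 7 in R26WT mice, which is 1.12 ± 0.20 on the log2 scale (adjusted p = 0.0301, edgeR). The R26TIR1(F74G) mice, which that test did not use, had 2.34, 2.63, 3.20 and 2.65 CPM on day 3 and 4.12, 4.77 and 4.91 CPM on day 7, which is 0.74 ± 0.20 on the log2 scale (unadjusted p = 0.00063, adjusted p = 0.316, edgeR). The days did not overlap in either genotype. Over both genotypes it was 0.93 ± 0.14.

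The other window called in R26WT mice (chr16:55809218-55809419) was separate from these and the farthest of the group from the gene. It had 1.299, 1.32, 1.50 and 1.77 CPM on day 3 and 4.65, 3.37 and 3.00 CPM on day 7 in R26WT mice (log2 fold change 1.33 ± 0.25, adjusted p = 0.0406, edgeR). In R26TIR1(F74G) mice it had 1.08, 1.66, 2.68 and 2.01 CPM on day 3 and 2.89, 3.52 and 3.24 CPM on day 7 (0.72 ± 0.24, adjusted p = 0.489, edgeR). Every mouse of day 7 was again above every mouse of day 3, and over both genotypes the log2 fold change was 1.02 ± 0.17 (adjusted p = 0.0106, edgeR). The remaining window called over both genotypes (chr16:55809516-55809717) had a mean of 2.90 ± 0.37 CPM (SD, n = 8) on day 3 and 5.27 ± 0.67 CPM (n = 6) on day 7, a log2 fold change of 0.86 ± 0.13 (adjusted p = 0.0018, edgeR).

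The other 5 windows of the group moved in the same direction without passing, with log2 fold changes of 0.48 to 0.69 over both genotypes and unadjusted p-values under 0.05. A window among them (chr16:55809873-55810074) had 7.04, 6.80 and 6.75 CPM in the R26WT mice of day 7 and 5.08, 4.59 and 5.06 CPM in the R26TIR1(F74G) mice, which do not overlap (log2 fold change of genotype -0.48 ± 0.17, adjusted p = 0.710, edgeR). That window was named for its small p in this comparison. All 9 windows were higher on day 7 in each genotype, by 0.44 to 1.33 in R26WT and by 0.24 to 0.91 in R26TIR1(F74G) mice. In 6 of the 9 windows the 6 mice of day 7 were all above the 8 mice of day 3, and no other window of the family showed this. Over all windows the share was 0.0432%. The 9 windows join into 5 separate regions and were grouped after their values were seen, so this count is no separate support. The interaction of day and genotype was between -0.71 and 0.35 for the 9 windows (smallest adjusted p = 0.713, edgeR), so a difference in size between the genotypes was not detected.

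**Figure D4:**
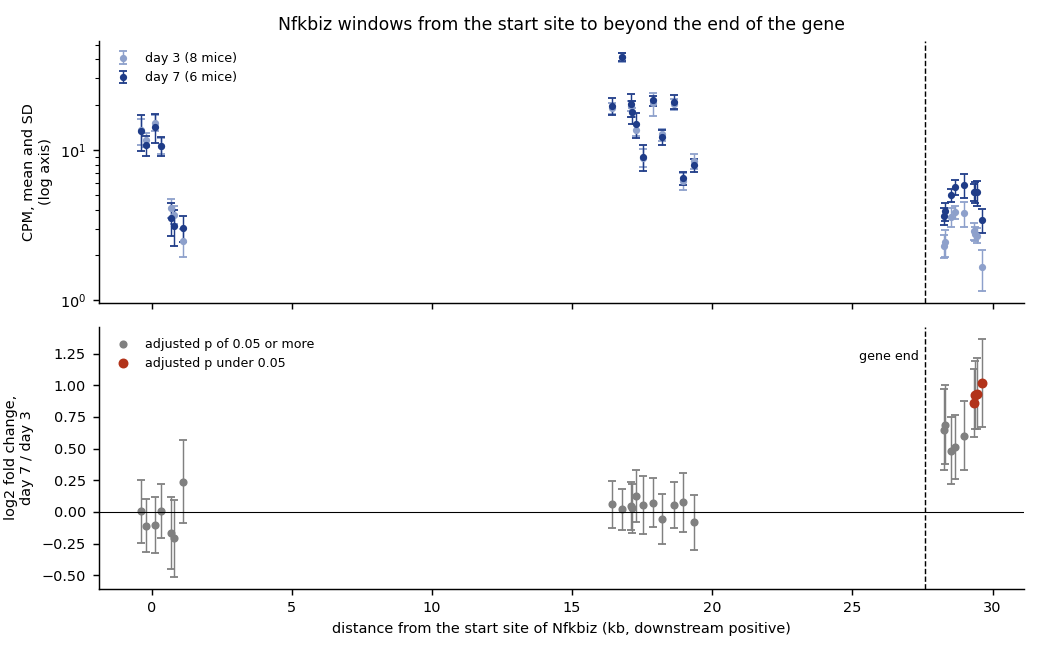
Nfkbiz windows from upstream of the start site to 36 kb downstream, by distance from the start site in kb (horizontal axis). The upper panel gives mean CPM and SD on a log axis for 8 mice of day 3 and 6 mice of day 7, and the lower panel gives the log2 fold change of day 7 over day 3 over both genotypes with 95% confidence intervals. The 9 windows past the dashed line that marks the end of the gene are all above 0, with the 4 of adjusted p under 0.05 in red, whereas the 16 windows between the start site and 20 kb lie around 0.

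This difference was not seen in the first 20 kb downstream of the start site of Nfkbiz. The 16 windows between the start site and 20 kb downstream, which include the most accessible window, had log2 fold changes of day 7 over day 3 from -0.21 to 0.24. At the start site itself it was -0.10 ± 0.11. The 9 windows are weakly open in comparison, with means of 1.67 to 3.87 CPM on day 3 and 3.44 to 5.89 CPM on day 7. Summed accessibility of activated Treg cell markers (windows for 3 of 6 genes) was 21.8 to 25.9 CPM on day 3 and 21.9 to 28.0 CPM on day 7, and that of resting Treg cell markers (5 of 6 genes) was 77.9 to 107 CPM and 87.3 to 104 CPM. Their part in the result was not tested. Day and anything else that differed between the mice of day 3 and day 7, including the length of treatment, cannot be told apart, as no untreated mice were among these samples. The 2 calls in R26WT mice alone became 0 by DESeq2 and 0 or 1 after leaving out any 1 mouse, whereas over both genotypes 3 or 4 windows passed when any 1 mouse was left out and 3 by DESeq2 (against 0.00498% of all windows), which gave no adjusted p for the window farthest from the gene.

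**Figure D5:**
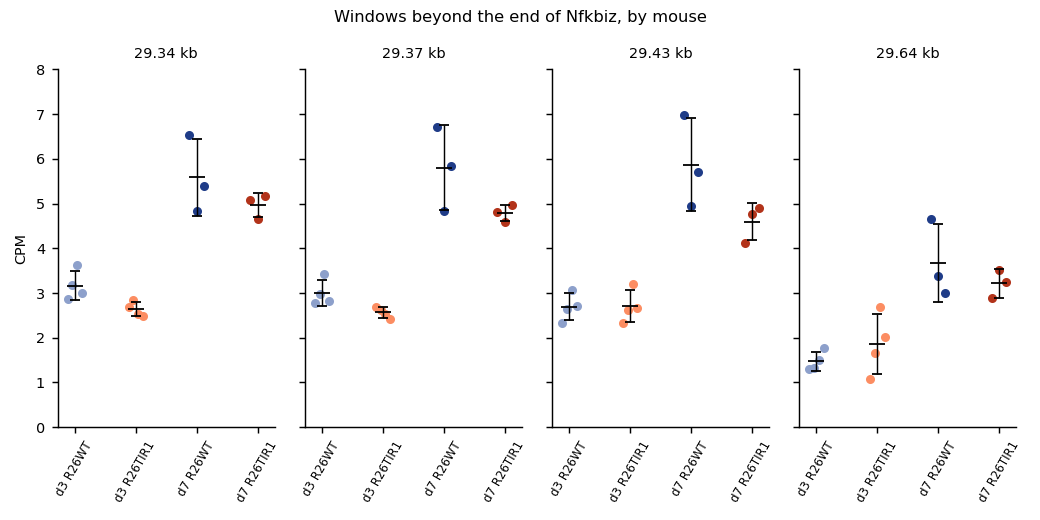
CPM (vertical axis) in the 4 windows past the end of Nfkbiz with adjusted p under 0.05 over both genotypes, titled by distance from the start site. Each point is a mouse, grouped by day (d3, d7) and genotype, and the bars give the group mean and SD. All mice of day 7 lie above all mice of day 3 in each panel.

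The rest of the family showed no call between days. At an unadjusted p under 0.05, 20 windows were higher and 24 lower on day 7 in R26WT mice (5.93% and 7.12%, against 2.6% and 2.65% of all windows), and 9 of the 20 were in the group past Nfkbiz. The R26WT counts became 22 and 9 without mouse 2 of day 7, 16 and 13 without mouse 3 of day 3 and 12 and 11 by DESeq2. In R26TIR1(F74G) mice 20 were higher and 8 lower (5.87% and 2.35%, against 2.91% and 4.05%), of which 8 of the 20 were in that group. The R26TIR1(F74G) counts became 20 and 4 without mouse 3 of day 3, 16 and 5 without mouse 1 of day 7 and 16 and 11 with total counts. Over both genotypes 16 were higher and 13 lower (4.68% and 3.80%, against 2.38% and 3.1%), with all 9 of the group among the 16. They became 21 and 8 without the R26TIR1(F74G) mouse 2 of day 7, but 12 and 13 without mouse 3 of that group. Without the R26WT mouse 1 of day 7 they were 12 and 15, and with total counts 16 and 16. In R26TIR1(F74G) mice 11 of 12 Rela windows had a log2 fold change above 0 from day 3 to day 7 (median 0.30, smallest adjusted p = 0.464, edgeR), against 6 of 12 in R26WT mice. In that comparison of R26TIR1(F74G) mice 51.9% of all windows were below 0, but only 33.8% of start-site windows were, and 5 of the 12 Rela windows lay within 500 bp of the start site. The Rela median was 0.17 without mouse 3 of day 3 and also without mouse 1 of day 7. These values share their mice with the genotype comparison of day 3.

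Further genes of the pathway were taken as 3 lists of 31 genes, namely receptor-proximal and kinase genes such as Chuk and Ikbkb, other inhibitors and nuclear IkB proteins such as Bcl3, and induced target genes such as Traf1 and Icam1. Of these, 30 had windows, 723 in all, and Gadd45b was the one without. No window of the lists passed in the genotype comparisons, the interaction or the comparisons of days (edgeR, 0 in each of 7). DESeq2 called 2 between the genotypes over both days and 0 in the other 6 comparisons, against 0.0644% of all windows that it called in the former. These were a window of Traf2, an adaptor of TNF receptors (chr2:25534197-25534398; log2 fold change -0.39 ± 0.10, adjusted p = 0.0349 by DESeq2 and 0.319 by edgeR), and a window of Zc3h12a, which encodes an RNase that degrades inflammatory mRNAs (chr4:125124837-125125038; log2 fold change -0.29 ± 0.08, adjusted p = 0.0477 by DESeq2 and 0.443 by edgeR). On day 3, 6 windows were higher and 44 lower in R26TIR1(F74G) mice at an unadjusted p under 0.05, of 704 tested (0.852% and 6.25%, against 3.93% and 3.62% of all windows). This became 8 and 25 with loess offsets, 11 and 33 with total counts, 18 and 53 without the R26WT mouse 1, 10 and 56 without the R26TIR1(F74G) mouse 2, 13 and 32 without the R26TIR1(F74G) mouse 3 and 9 and 23 without the R26WT mouse 4. The list medians on day 3 were -0.00 for the receptor-proximal and kinase genes, -0.10 for the other inhibitors and -0.06 for the targets. On day 7 it was 15 higher and 23 lower of 716 tested (2.09% and 3.21%, against 2.75% and 3.2%), with 29 and 19 without the R26WT mouse 1, 21 and 14 without the R26TIR1(F74G) mouse 2 and 10 to 22 higher and 16 to 32 lower without any other mouse. From day 3 to day 7, 37 were higher and 17 lower in R26TIR1(F74G) mice (5.15% and 2.36%, against 2.91% and 4.05%), but 18 and 18 without mouse 1 of day 7 and 13 and 17 without mouse 3 of day 7. In R26WT mice 5 were higher and 31 lower (0.707% and 4.38%, against 2.6% and 2.65%), with 4 to 12 higher and 18 to 30 lower when a mouse was left out. The lower count fell furthest without mouse 3 of day 3 (8 and 21) and without mouse 3 of day 7 (12 and 18).

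The genes whose start-site accessibility most resembled the mean of the family over the 14 libraries were Mettl23 (Pearson r = 0.96), Ttll5 (0.95), Usp19 (0.95), Dnajb5 (0.95) and Eif2ak1 (0.95), out of 8900 genes compared. The family mean ran from 4.26 to 4.79 log2 CPM, with the lowest value in the R26TIR1(F74G) mouse 3 and the highest in the R26WT mouse 4, both of day 3. All other libraries lay between 4.47 and 4.67 log2 CPM. The same mice had the highest and the lowest TMM normalisation factor (1.07 and 0.945). The points share library, depth and the overall openness of start sites, and the correlation is a description.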

How the data were processed

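Bulk ATAC-seq was performed on Treg cells of 14 mice in 4 groups, 1 library per mouse. Per the labels, the authors worked in mm10 with Bowtie2, MACS2, featureCounts and DESeq2. Their methods describe peaks called with MACS2, kept where reproducible between replicates and merged, with reads counted at the peak summits. The deposited values are the resulting raw counts per window, for 240778 windows, the lowest mean count of a window being 10.1. Reads were shifted and extended around cut sites for peak calling. How duplicate reads were handled is not given in the sources used here.

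Each window went to the nearest protein-coding start site of RefSeq (GRCm38.p6). The strand came from the RefSeq promoter table for 17492 genes and from the GENCODE annotation, by symbol, for 3948, and 447 genes without a strand were left out, 0 of them within 1 Mb of a gene described here. CPM were computed with TMM factors over all 14 libraries. Coordinates are those of the deposited table. Counts were tested with edgeR 4.0.16 (quasi-likelihood F test, limma 3.58.1, R 4.3.3) on every window whose counts averaged 10 or more over the libraries compared, with Benjamini-Hochberg adjustment over all of them and a threshold of 0.05. The SE is the log2 fold change divided by the root of F. Comparisons were between genotypes on day 7, day 3 and both days, their interaction with day, and between days in each genotype. Day 7 against day 3 over both genotypes was added after the data were seen. The test was checked on simulated counts, with changes placed only in windows averaging 50 counts or more. Over all 14 libraries, 128 of the 342 windows of the family reached that average, so the check does not cover changes in the rest. Alternatives were DESeq2 1.42.0, size factors, total counts, loess offsets, other filters (none, or an average of 50 counts), thresholds of 0.1 and 0.01, leaving out each mouse, a replicate block, the letters of the mouse names as a term, all 14 libraries in 1 fit and assignment within 20 kb. Tables were handled in Python 3.11.15.

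The genes and lists were chosen with earlier results of these data known. Windows named in the text are, per gene, the start-site window, the most accessible window and any window past the threshold, and per comparison the 3 smallest p-values. The other windows past the end of Nfkbiz, and the gene-wise counts for Rela and Nfkb2, were chosen once their values had been seen. Replicate numbers are shared between groups, but same-numbered mice did not deviate together, and they were not treated as pairs. The methods describe age-matched mice with littermate controls, but the labels do not say which mice shared a litter.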

Additional observations from a re-analysis of the deposited data

Results flagged for a closer look

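For the 30 windows named by the rule, the highest and lowest of the 4 mice of each day 3 group were compared with the others by Dixon's test (60 groups, of which chance would give about 3). In the Relb window 806 bp downstream of the start site, the R26TIR1(F74G) mouse 1 of day 3 had 52.5 CPM, and the other 3 mice of its group had 45.5 to 46.7 CPM. In the Nfkbia start-site window, the R26WT mouse 4 of day 3 had 44.2 CPM, above the 37.9 to 38.6 CPM of the other 3 mice. The 2 cases are no more than chance would give.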

How the results depend on the processing

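Every genotype comparison and the interaction had 0 windows called under every alternative run, as had the comparison of days in R26TIR1(F74G) mice. The 2 windows called between days in R26WT mice became 0 with DESeq2, 0 with the letters of the mouse names as a term, 0 with all 14 libraries in 1 fit, 0 at a threshold of 0.01 and 1 with loess offsets. Leaving out a mouse gave 0 to 1, with 0 without each of the 4 mice of day 3 or mouse 1 of day 7. Assignment within 20 kb gave 0 in R26WT mice and 0 over both genotypes, because that rule leaves out the windows past the end of Nfkbiz. Otherwise the count over both genotypes was 3 or 4. The 3 overlapping windows past Nfkbiz passed over both genotypes under every alternative fit, with log2 fold changes of 0.80 to 0.99. The order of the start sites had 2 positions changed with loess offsets.

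With a replicate block, 3 windows were called between days in R26WT mice, and the number called in every other comparison stayed the same. The counts at an unadjusted p under 0.05 did move. With the block, 11 were higher and 16 lower between genotypes on day 3, and 5 and 11 over both days. Between days in R26TIR1(F74G) mice they were 16 and 5. Same-numbered mice of a day correlated by -0.0787 to 0.0652 in their deviations from the group means, so the numbers did not pair the mice.

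Directions turned, among the windows named by the rule, only for genotype differences over both days that were close to 0 and not called. With loess offsets the log2 fold change became 0.0226 for Nfkb1 at -39514 bp, 0.0735 for the Rel start site, 0.0036 for Rela at 176 bp, 0.0254 for Relb at 806 bp, 0.0331 for Nfkbiz at 16763 bp and 0.0530 for the Tnfaip3 start site. Total counts gave 0.0237 for Rel and 0.0042 for Tnfaip3, and an average of 50 counts gave 0.0271 and 0.0089. For Tnfaip3 at -46887 bp the letters of the mouse names gave -0.0234, and leaving out the 2 libraries of lowest depth, an alternative added after the data were seen, gave -0.0395. Leaving out single mice gave ranges of -0.0929 to 0.0178 for Nfkb1 at -39514 bp, -0.0539 to 0.0360 for Rel, -0.13 to 0.0267 for Rela at 176 bp, -0.0505 to 0.11 for the Nfkbiz start site, -0.0658 to 0.0152 for the Tnfaip3 start site and -0.0417 to 0.0776 for Tnfaip3 at -46887 bp. Windows past Nfkbiz held as few as 6 reads in a library, which limits their precision.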
